A study of Mus musculus with 6 samples.

Results

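Transcripts of 42 cell cycle genes were followed in mouse limb buds at stage E11.5 by single-cell RNA-seq. The list held 20 genes of S phase and 22 genes of G2 and mitosis (G2/M). Its members were taken by gene name, and all 42 had a row in both deposited count matrices, among 15668 genes in all. Values are given per cell class, per finer class of mesenchyme and muscle, and per library, for the apical ectodermal ridge (AER), the dorso-ventral ectoderm, the mesenchyme with its chondrocyte progenitors, and the muscle lineage.

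The 6 libraries formed 6 groups of 1 library each. The C57BL/6 wild-type hindlimb was paired with the Dup hindlimb, in which both alleles carried a tandem duplication of the region from Lbx1 to Fbxw4, with Btrc, Poll and Dpcd between them. The G4 wild-type hindlimb and forelimb, from embryos of the 129sv/C57Bl6 hybrid G4 embryonic stem cell line, were paired with the Inv1 hindlimb and forelimb, in which both alleles carried an inversion with a breakpoint in Fbxw4. The labels give the strain of the Dup library as c57bl6.J, as for its wild type, and that of the other 4 as G4 ESC. Both rearrangements were engineered in G4 stem cells by genome editing and were carried by every tissue of the mutant, not by a chosen cell type. How many embryos made up a library was not stated. With 1 library per group no difference between groups could be tested, and no p-value is given. Intervals are exact 95% intervals that cover counting error only. UMIs (unique molecular identifiers, each standing for 1 captured transcript) of the same cell are not independent, so the intervals are too narrow.

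In a dividing cell, transcripts of replication genes rise first. They encode the licensing helicase (Mcm2 to Mcm7, loaded with the help of Cdc6), the replication fork (Pcna, Gins2, Cdc45, Fen1), nucleotide supply (Rrm1, Rrm2, Tyms) and the cyclins that drive entry into S phase (Ccne1, Ccne2), and many are targets of E2F transcription factors. Genes of the spindle, the kinetochore and the cyclin B and Cdk1 kinase follow in G2 and mitosis. These are held down in resting cells by the DREAM complex and activated by the MuvB complex with B-Myb and FoxM1, which recognise a cell cycle homology region (CHR) near the start site, often beside CCAAT boxes. The AER, which secretes FGFs from the distal rim of the bud, is known as a slowly cycling epithelium beside fast cycling mesenchyme, and muscle precursors and cartilage progenitors leave the cycle as they differentiate.

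The promoters of 5 members are shown because they carry the words that mark the G2/M and S sets. The sequences were taken from RefSeq on GRCm38.p6 and run 5′ to 3′ on the strand of the gene, from 180 bases before to 12 bases after the start. Capitals mark the CHR word TTTGAA, the CCAAT box and the E2F words TTTCCCGC, TTTGGCGC, TTTCGCGC and TTTGCCGC, on either strand. Ccnb2 (a B-type cyclin, chr9:70421543-70421734, minus strand), Cdc20 (an activator of the anaphase-promoting complex, chr4:118437332-118437523, minus strand) and Cdk1 (the mitotic kinase, chr10:69352901-69353092, minus strand) stand for the G2/M genes. Mcm5 (chr8:75109329-75109520, plus strand) and Mcm6 (chr1:128359694-128359885, minus strand), both subunits of the replicative helicase, stand for the S genes.
Ccnb2: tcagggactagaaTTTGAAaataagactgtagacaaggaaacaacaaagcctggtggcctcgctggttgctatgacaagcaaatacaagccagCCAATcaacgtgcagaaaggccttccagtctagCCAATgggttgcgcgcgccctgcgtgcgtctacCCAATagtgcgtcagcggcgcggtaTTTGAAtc
Cdc20: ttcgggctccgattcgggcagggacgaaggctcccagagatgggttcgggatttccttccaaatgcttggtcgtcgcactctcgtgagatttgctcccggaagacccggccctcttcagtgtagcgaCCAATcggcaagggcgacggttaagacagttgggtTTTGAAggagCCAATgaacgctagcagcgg
Cdk1: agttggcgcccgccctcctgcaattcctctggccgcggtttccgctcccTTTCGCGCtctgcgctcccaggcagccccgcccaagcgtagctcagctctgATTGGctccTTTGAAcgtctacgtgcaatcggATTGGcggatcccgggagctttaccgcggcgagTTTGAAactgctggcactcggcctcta
Mcm5: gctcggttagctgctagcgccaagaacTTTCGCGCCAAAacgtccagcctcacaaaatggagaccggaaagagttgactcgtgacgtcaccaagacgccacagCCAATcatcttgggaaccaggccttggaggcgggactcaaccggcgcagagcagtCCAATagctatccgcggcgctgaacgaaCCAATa
Mcm6: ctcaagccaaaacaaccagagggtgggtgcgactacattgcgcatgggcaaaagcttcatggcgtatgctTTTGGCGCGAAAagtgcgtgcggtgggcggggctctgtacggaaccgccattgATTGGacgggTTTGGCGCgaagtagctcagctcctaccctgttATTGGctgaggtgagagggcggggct

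In these windows Ccnb2 held 3 CCAAT boxes and 2 CHR words, while Mcm5 and Mcm6 held E2F words, some of them overlapping on opposite strands. Cdk1 was the only G2/M member with an E2F word, beside its CHR words. Over the whole RefSeq promoter window, from 250 bases before to 50 bases after the start, 36 of the 42 members had an entry. The CHR word was present in 14 of 19 G2/M members (73.7%), in 3 of 17 S members (17.6%, Mcm2, Fen1 and Cdc45) and in 20.2% of 27025 promoters. An E2F word was present in 7 of 17 S members (41.2%), namely Mcm3, Mcm5, Mcm6, Mcm7, Cdc6, Uhrf1 and Hells, against 1 of 19 G2/M members (5.26%) and 2.6% of all promoters. The CCAAT box was common in every set, in 84.2% of G2/M members, 64.7% of S members and 41.1% of all promoters, but a CHR word together with a CCAAT box was found in 68.4% of G2/M members, 11.8% of S members and 7.97% of all. Of the 19 CHR words in G2/M members, 14 lay within 60 bases of the start. These are matches of letters, which do not show binding. The members lie on 16 chromosomes, and 1 pair of words of different motifs overlapped in their windows.

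The libraries held 2249 to 5947 cells after cells with 2000 or fewer detected genes were left out (24891 of 26486 cells), with totals of 22660212 to 59403104 UMIs and a median of 6729 to 10098 UMIs per cell. Between 2 and 13 cell barcodes were shared by any 2 libraries. Sums are given in counts-per-million (CPM), the UMIs of a gene or list scaled to all UMIs of the class. The G4 wild-type forelimb library stood apart: over the G4 hindlimb the median log2 ratio of all measured genes in mesenchyme was 0.33, and in AER cells it was 0.49, while in the Inv1 forelimb over the G4 forelimb these medians were -0.17 and -0.36. In the other pairs the median lay within 0.07 of 0 in AER, mesenchyme and muscle, apart from the G4 over the C57BL/6 hindlimb (-0.10 to -0.12). Every forelimb comparison therefore rests on that library. The class labels, which the authors deposited, were checked against marker genes: 13 AER markers summed to 4059 to 11194 CPM in AER cells and 50.6 to 143 CPM in mesenchyme, and 11 muscle markers to 1715 to 5895 CPM in muscle. The AER markers summed to 1203 to 1489 CPM in dorso-ventral ectoderm and 732 to 1953 CPM in keratinocytes. The 9 dorso-ventral ectoderm markers summed to 1748 to 3174 CPM in their own class and 2437 to 3992 CPM in the AER. They thus did not set that class apart from the AER. UMIs of 4 erythroid markers were found in AER, muscle and mesenchyme at 432 to 3922 CPM. Free RNA was not removed, so a low level of any gene may include it.

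The 2 lists were first checked against each other within the mesenchyme, by asking in which cells the UMIs of each member were found. Cells with 15 or more UMIs of the other G2/M members (after each cell was thinned to 4000 UMIs) were 32.8 to 38.7% of mesenchyme cells, and they held a median over libraries of 60.6% (Ccnb2) to 87.4% (Nusap1) of the UMIs of each G2/M member. Nusap1, a microtubule-binding spindle protein, Aurka, the centrosomal mitotic kinase, and Cenpf, a kinetochore protein, were the most concentrated, at 87.4%, 85.1% and 84.2%. Ccnb2, Birc5, Cenpa and Top2a were the least concentrated, at 60.6%, 62.1%, 63.5% and 65.8%.

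The S members had 6.36% (Ung) to 44.9% (Rrm1) of their UMIs in the same cells. Ung, a uracil glycosylase, Cdc6, a licensing factor, and Mcm6 were the least frequent in G2/M-rich cells, at 6.36%, 14.7% and 19.6%, below the share of cells. Rrm2, Tyms and Rrm1, which make deoxynucleotides, were the most frequent, at 37.9%, 40.1% and 44.9%. Other S genes lay between, such as Mcm7 at 30.3% and the fork genes Pcna, Cdc45 and Fen1 at 26.2%, 37.2% and 37.8%. The highest S member was thus below the lowest G2/M member. The lists were chosen on known phase, so this describes how cleanly they separate in these cells. S sums include cells that are also high in G2/M genes, and not only through Rrm1, Tyms and Rrm2. Cells with 5 or more G2/M UMIs, the limit used for the calls below, were 53.2 to 67.5% of mesenchyme cells. They held 53.6% (Ung) to 80.7% (Rrm2) of the UMIs of each S member. For G2/M members this was 86.4% (Cenpa) to 97.4% (Nusap1), so the lists lay closer together at 5 UMIs than at 15.

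**Figure D1:**
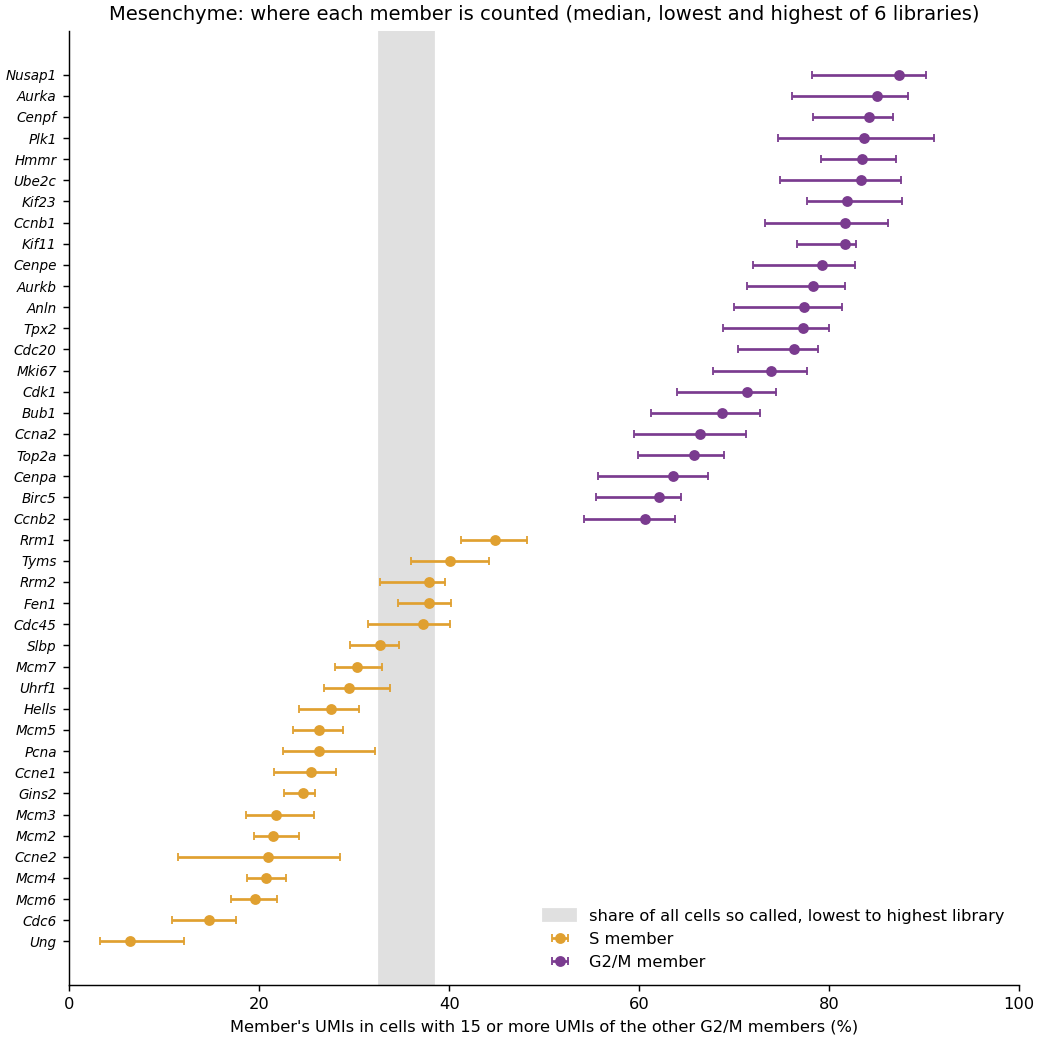
Percent of each member's UMIs in mesenchyme found in cells with 15 or more UMIs of other G2/M members, as the median (point) with the lowest and highest of 6 libraries (line), the grey band being the percent of all mesenchyme cells so called. G2/M members lie at 60.6 to 87.4%, S members at 6.36 to 44.9%, from Ung to Rrm1.

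AER cells held lower levels of both lists than the mesenchyme of the same library. The G2/M sum in AER was 3581 CPM in the C57BL/6 hindlimb (3322 to 3856), 2872 in Dup (2612 to 3150), 1980.2 in the G4 hindlimb (1816 to 2156), 1373 in the Inv1 hindlimb (1285 to 1465), 909 in the G4 forelimb (703 to 1156) and 1787 in the Inv1 forelimb (1656 to 1925). In mesenchyme the same sum was 3802 to 4415 CPM, so all 6 AER values were below every mesenchyme value. As a ratio to the mesenchyme of the same library, the AER G2/M sum was 0.217 to 0.934 (median 0.478) and the S sum 0.331 to 0.750 (median 0.385). In the C57BL/6 hindlimb, with 16 AER cells, the G2/M ratio of 0.934 had an interval of 0.866 to 1.01, and 1 cell gave 38.6% of the G2/M UMIs. Without 4 cells that carried many mesenchyme markers (described below) this ratio was 0.822 (0.727 to 0.927). AER cells numbered 10 to 82 per library, so values of this class rest on few cells. The authors made the classes from clusters of variable genes and from marker genes of these same cells, so differences between classes are given as descriptions.

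Among the members, 14 of 20 S genes and 12 of 22 G2/M genes were below mesenchyme in all 6 libraries. The share of all genes so placed is not given, so these counts describe the members alone. Rrm2, the regulated subunit of ribonucleotide reductase, was measured at 198, 154, 63.2, 75.3, 55.1 and 46.5 CPM in AER (in the order above, used throughout) and at 277, 301, 293, 303, 223 and 233 CPM in mesenchyme. Its median log2 ratio of -1.92 was the lowest of all members, and its groups of values did not overlap. Mcm2 was at 24.1 to 56.0 CPM in AER against 77.9 to 128 CPM in mesenchyme, a median log2 ratio of -1.64. Top2a was at 280, 333, 197, 185, 165 and 186 CPM in AER against 432 to 683 CPM in mesenchyme, and Mki67, the widely used marker of cycling cells, at 55.7 to 91.6 CPM against 102 to 215 CPM.

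Plk1, a mitotic kinase, had the lowest median among the G2/M genes (-1.72) and was listed at 0 in the G4 forelimb AER, where Ccnb2, Nusap1, Cdc45, Fen1 and Mcm3 were also at 0 UMIs among 10 cells (the 95% interval of Plk1 reached 50.8 CPM there). Other genes were less uniform. Ube2c, the ubiquitin-conjugating enzyme of the anaphase-promoting complex, ranged from 68.8 CPM in the G4 forelimb to 661 CPM in the C57BL/6 hindlimb, and there it was above the mesenchyme value of 543 CPM. Ccne2 had the highest median of the S genes, -0.50, and was below mesenchyme in 4 of 6 libraries.

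**Figure D2:**
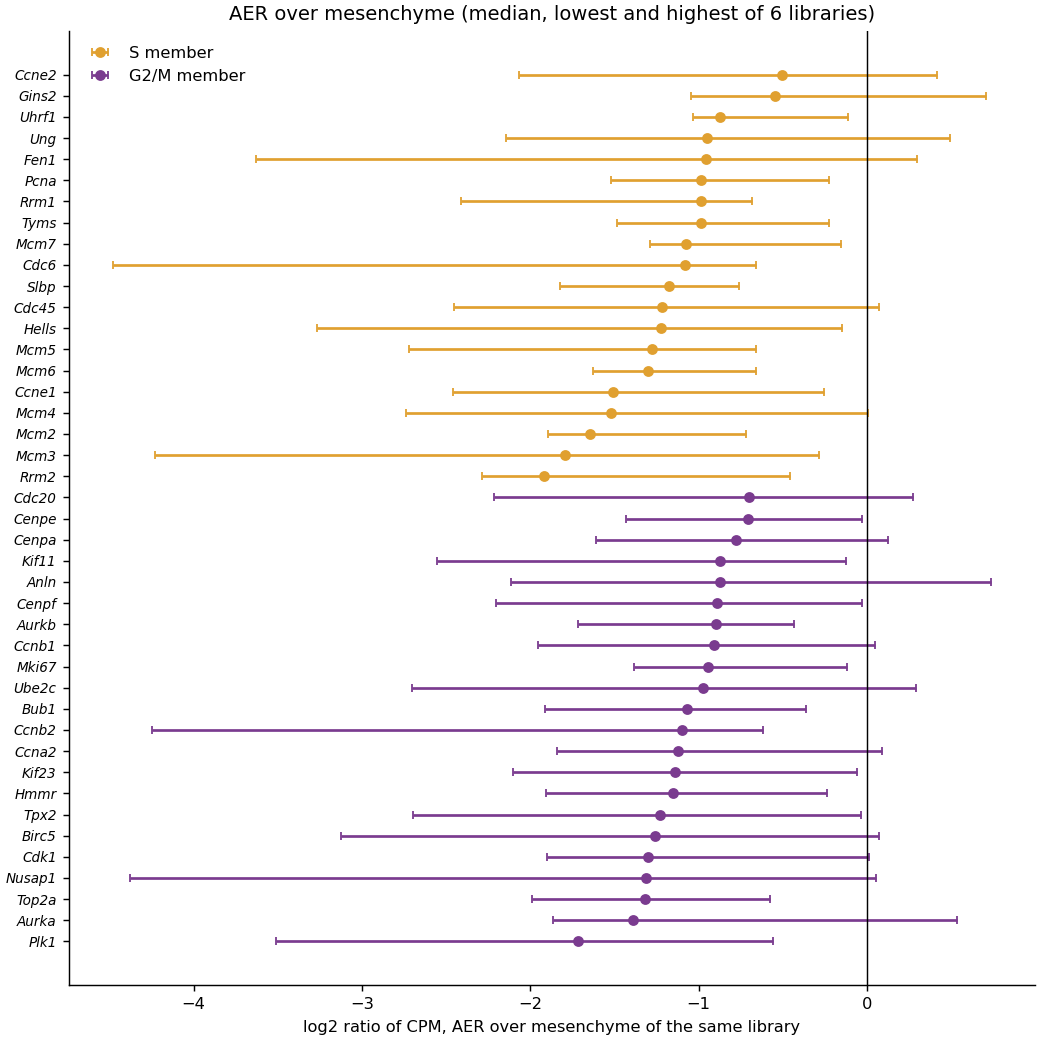
Log2 ratio of CPM in AER over mesenchyme of the same library for each member, with 0.5 counts added (also for members with 0 UMIs in AER), as the median (point) and the lowest and highest of 6 libraries (line). The medians lie between -1.92 (Rrm2) and -0.50 (Ccne2), all below 0.

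The low AER sums were made of many cells with few cell cycle UMIs and a few cells with many. After thinning to 4000 UMIs, which left out 0 AER cells and 3 to 32 mesenchyme cells per library, 1 of 16, 2 of 25, 7 of 33, 30 of 82, 2 of 10 and 14 of 39 AER cells had 0 UMIs of the 22 G2/M genes, while 4, 6, 5, 7, 0 and 4 cells had 15 or more, and the highest cell had 10 to 52. Cells were then called G2/M-high (5 or more G2/M UMIs), S-high (under 5 G2/M UMIs and 5 or more S UMIs) or low. In the AER 31.2% (11 to 58.7%), 52.0%, 63.6%, 68.3% (57.1 to 78.1%), 70% and 61.5% of cells were low, against 7.1 to 23.3% in mesenchyme of the 6 libraries. G2/M-high cells were 56.2, 44.0, 27.3, 24.4, 10.0 and 33.3% of the AER, and 53.2 to 67.5% of mesenchyme. Without thinning the AER shares were 75.0, 44.0, 36.4, 24.4, 40 and 41.0%, and those of mesenchyme 63.8 to 78.0%. The limit of 5 UMIs falls on a slope with no gap between cells that have few and many, so these classes are ranges of expression and do not by themselves show that a cell was dividing.

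**Figure D3:**
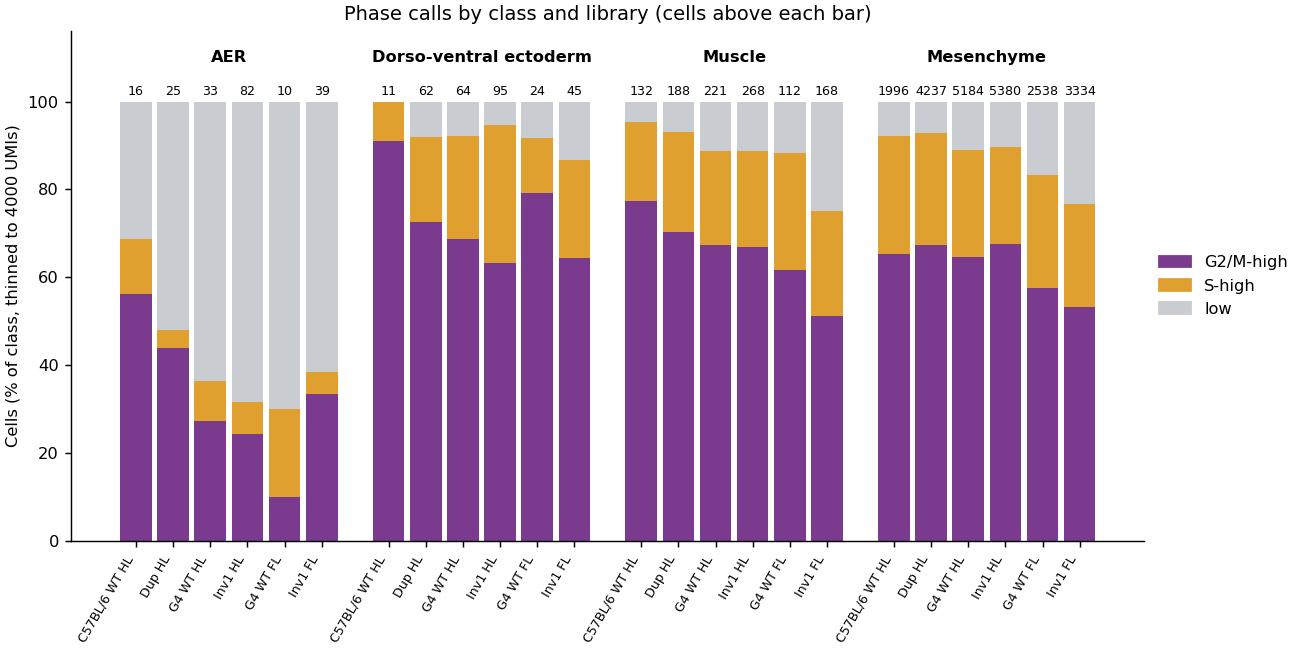
Percent of cells called G2/M-high, S-high or low after thinning to 4000 UMIs, as stacked bars for AER, dorso-ventral ectoderm, muscle and mesenchyme in 6 libraries, with the number of cells above each bar. Low cells make up 31.2 to 70% of the AER and 7.1 to 23.3% of mesenchyme.

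Cdkn1a, which encodes the cyclin-dependent kinase inhibitor p21, was high in the AER. It was at 66.1, 160 and 123 CPM in the AER of the C57BL/6, Dup and G4 hindlimbs and at 75.3, 124 and 124 CPM in the Inv1 hindlimb, G4 forelimb and Inv1 forelimb. In dorso-ventral ectoderm it was at 3.76 to 37.8 CPM and in mesenchyme at 0.812 to 3.14 CPM, so the AER values were above both classes in every library. Cdkn1c, which encodes p57, did not follow this order, since it was at 245 to 454 CPM in the AER of 5 libraries and at 822 to 1207 CPM in mesenchyme. In the C57BL/6 AER it was at 1251 CPM, and there 4 of 16 cells carried UMIs of 10 or more of 16 mesenchyme markers. Those 4 cells held 111196 of the 196580 UMIs of that class and 435 of its 704 G2/M UMIs. Pooled C57BL/6 AER values thus rest largely on them.

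Genes that act before S phase were not low throughout the AER. Ccnd2, cyclin D2, which carries growth signals to the retinoblastoma protein, was at 275, 313, 312, 400.4, 509 and 522 CPM in the AER and at 282 to 550 CPM in mesenchyme, so the ranges overlapped. Rb1, which encodes the retinoblastoma protein that holds E2F in check, was at 25.4, 76.8, 63.2, 69.2, 82.6 and 36.2 CPM in the AER against 7.67 to 18.6 CPM in mesenchyme, with no overlap. These Rb1 levels rest on 5 to 46 UMIs per library. Foxm1, a transcription factor that activates G2/M genes, was at 2.58 to 15.3 CPM in the AER, 1 to 3 UMIs per library, against 16.7 to 34.1 CPM in mesenchyme.

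Markers of mesenchyme were present in the AER class at 398 to 1500.5 CPM over the list of 16 genes, against 2334 to 3383 CPM in mesenchyme, and 10 to 15 of the 16 were detected. The 4 C57BL/6 cells and 1 Dup cell with 10 or more of these markers were left out in a further count. The C57BL/6 G2/M sum was then 3150 CPM in 12 cells and the Dup sum 3041 CPM in 24 cells. Endothelial markers were at 0 to 1.51 CPM in the AER. A gate on 10 AER markers in place of the authors' class gave ratios to mesenchyme of 0.390 to 0.984 for G2/M and 0.472 to 0.819 for S, below 1 in 6 of 6 libraries.

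The dorso-ventral ectoderm, the epithelium next to the ridge, was nearer to mesenchyme in the G2/M genes than in the S genes in 5 of 6 libraries. In the Inv1 forelimb the order was the opposite, with ratios to mesenchyme of 0.633 for G2/M and 0.843 for S. Its G2/M sum was 3858 CPM in the C57BL/6 hindlimb (11 cells), 4044 in Dup, 3109 in the G4 hindlimb, 3492 in the Inv1 hindlimb, 3733 in the G4 forelimb and 2599.8 in the Inv1 forelimb. The ratio to mesenchyme was 0.633 to 1.01 (median 0.854) for G2/M and 0.690 to 0.962 (median 0.752) for S. Low cells were 0 to 13.3% of this class (0 of 11 cells, in the C57BL/6 hindlimb, allows a share of up to 27.3%), and G2/M-high cells 63.2 to 90.9%. Both shares of dorso-ventral ectoderm thus lay outside the range of the AER.

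Within the dorso-ventral ectoderm, Ccne1, Ccne2, Mcm2, Mcm5, Mcm6, Pcna and Slbp were below mesenchyme in 6 of 6 libraries, as were Aurka, Top2a, Ccna2, Kif23, Nusap1 and Tpx2. How many of all genes were below in each library is not given. Ccne1, cyclin E1, had a median log2 ratio of -1.03. Uhrf1, which brings the maintenance DNA methyltransferase to replicating DNA, went the other way in every library, at 107 to 177 CPM in dorso-ventral ectoderm and 80.0 to 124 CPM in mesenchyme, with a median log2 ratio of 0.59. No member had a higher median in this class.

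Muscle cells had fewer G2/M transcripts than mesenchyme but nearly the same S transcripts. The G2/M sum was 3104, 3212, 2689, 3207, 3079 and 2248 CPM, a ratio of 0.547 to 0.810 to mesenchyme (median 0.730), below 1 in 6 of 6 libraries. The S sum was 1941 to 2439 CPM, a ratio of 0.897 to 1.01 (median 0.937). The G2/M sum was 1.16 to 1.5 times the S sum in muscle and 1.56 to 1.90 times in mesenchyme. The phase balance of the classes thus did not overlap. The share of G2/M-high cells, at 5 or more UMIs, did not follow the sums. It was 77.3, 70.2, 67.4, 66.8, 61.6 and 51.2% in muscle. In mesenchyme it was 65.3, 67.3, 64.5, 67.5, 57.6 and 53.2%. Muscle was thus lower only in the Inv1 hindlimb and Inv1 forelimb, and higher in the other libraries. At 15 or more UMIs its share was lower in every library.

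In muscle 18 of 22 G2/M genes and 8 of 20 S genes were below mesenchyme in all libraries. For this class too, the share of all genes above or below mesenchyme in every library is not given. Ccnb2 was at 73.2, 87.0, 76.6, 87.8, 72.8 and 76.0 CPM in muscle and at 129 to 141 CPM in mesenchyme, with a median log2 ratio of -0.79, the lowest of the list. Cenpf was at 128 to 249 CPM against 272 to 392 CPM. Ccna2, cyclin A2, which acts from S phase to mitosis, was nearest to mesenchyme among the G2/M genes, with a median of -0.03.

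The E cyclins were higher in muscle. Ccne1 was at 181, 166, 170.0, 157, 161 and 122 CPM in muscle and at 81.9, 74.6, 81.5, 70.3, 60.2 and 53.8 CPM in mesenchyme, so the lowest muscle value was above the highest mesenchyme value, with a median log2 ratio of 1.15. Ccne2 (median 0.54), Cdc6 (0.23) and Uhrf1 (0.19) were also above mesenchyme in 6 of 6 libraries. The helicase subunit Mcm4 was the lowest S gene, with a median of -0.51.

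Muscle cells were divided by UMIs of Myog, which encodes the transcription factor that starts terminal muscle differentiation. The G2/M sum in cells with Myog UMIs was 2703, 2913, 2260, 3053, 2788 and 1843 CPM (34 to 98 cells), below that of cells without in each library, at 3245, 3377, 2859, 3295, 3335 and 2599.5 CPM (56 to 170 cells). The S sum was likewise lower in 6 of 6 libraries, at 1385 to 2244 CPM against 2265 to 2792 CPM. The median cell had fewer UMIs in cells with Myog UMIs than in cells without in each library, 9502.5 to 15588.5 against 10073 to 17586. Low cells, called after thinning, were 14.7, 13.2, 27.3, 29.6, 23.2 and 40.5% of cells with Myog UMIs and 1.0, 3.3, 4.5, 0.6, 0 and 11.2% of cells without (0 of 56 cells, in the G4 forelimb, allows a share of up to 5.36%). Cells with Myog UMIs, which should hold few dividing cells, still gave 39.2 to 61.8% G2/M-high calls, against 61.8 to 82.7% without.

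Some of the listed inhibitors, and Rb1 of the G1/S control list, followed the same division. Cdkn1c was at 4819, 4824, 6109, 5586, 5330 and 6173 CPM in cells with Myog UMIs and at 1645 to 2122 CPM in cells without. Cdkn1a was at 196 to 279 CPM and 9.96 to 84.8 CPM in the same classes. Gadd45g, a stress and differentiation gene that restrains Cdk1, was at 206 to 427 CPM and 27.95 to 54.7 CPM, and Rb1 at 32.9 to 112 CPM and 2.25 to 14.9 CPM. For these 4 genes the classes did not overlap. The other inhibitors of the list, and the share of all genes without overlap, are not given here. Ccnd3, the D cyclin kept by differentiating muscle, was at 319.6 to 388 CPM with Myog UMIs and 189 to 322 CPM without. These ranges overlapped, and within each library the level was higher with Myog UMIs (6 of 6).

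**Figure D4:**
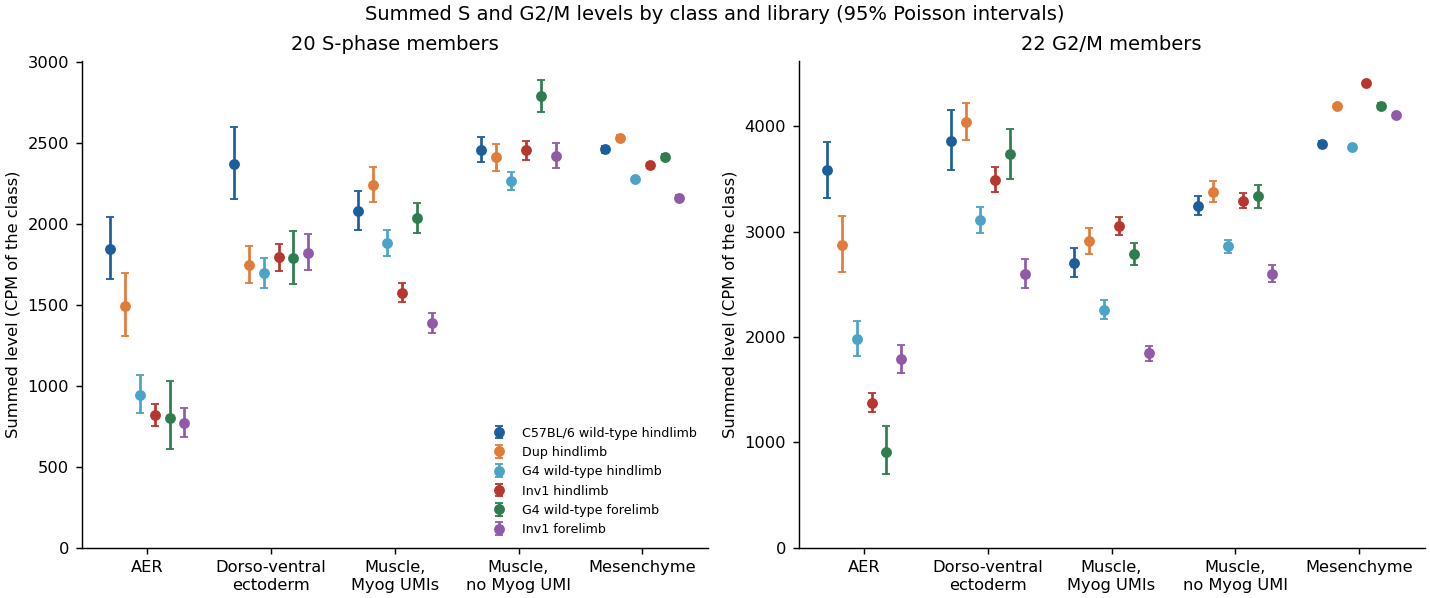
Sums of the 20 S genes and of the 22 G2/M genes in CPM for AER, dorso-ventral ectoderm, muscle with and without Myog UMIs and mesenchyme in 6 libraries, with 95% Poisson intervals. The 6 AER values of G2/M, 909 to 3581 CPM, lie below the mesenchyme values, 3802 to 4415 CPM.

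Finer classes of mesenchyme were labelled in the C57BL/6 and Dup hindlimbs only. The G2/M sum was highest in autopod mesenchyme, the cells of the future hand and foot, at 4826 CPM in C57BL/6 and 5128 CPM in Dup. It was 3896 and 4073 CPM in zeugopod mesenchyme and 3649 and 3497 CPM in stylopod mesenchyme, so from distal to proximal the sums declined in both libraries. G2/M-high cells followed the same order, at 93.9 and 89.1% in autopod, 70.9 and 63.3% in zeugopod and 55.2 and 51.5% in stylopod mesenchyme.

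Stylopod chondrocyte progenitors, the cartilage precursors of the proximal limb, had the lowest G2/M sums in the mesenchyme, at 1382 CPM in C57BL/6 (168 cells) and 1312 CPM in Dup (128 cells). All 22 G2/M genes and 18 of 20 S genes were below mesenchyme in both libraries. These counts describe the members only, since the share of all genes below mesenchyme in both is not given. Aurkb, the kinase of the chromosomal passenger complex, was lowest, with a median log2 ratio of -2.40 at 16.9 and 7.14 CPM, and Ube2c was at 205 and 179.7 CPM. Rrm2 was at 82.0 and 101.2 CPM, the lowest ratio of the S genes (-1.66), whereas Mcm6 was above mesenchyme in both libraries, at 118 and 107 CPM. The medians over the lists were -1.64 for G2/M and -0.54 for S, so the G2/M sum was 0.887 and 0.759 times the S sum. S-high cells were 50 and 48.0%, low cells 30.2 and 33.1%. The 10 chondrocyte markers summed to 3616 and 3160.2 CPM in this class, with 10 of 10 detected. Cdkn1c was at 2469 and 2534 CPM.

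The comparison of Dup with the C57BL/6 hindlimb asks whether the cell cycle genes differ where the duplication is present. In mesenchyme the G2/M sum was 3833 CPM in 2025 C57BL/6 cells and 4192 CPM in 4253 Dup cells, a ratio of 1.09 (1.08 to 1.10), and the S ratio was 1.03 (1.02 to 1.04). No member changed by 1.5 times or more, while 0.716% of 7966 measured genes were higher and 1.95% lower by that fold. The median log2 ratio was 0.09 over the G2/M genes and 0.01 over the S genes, beside -0.07 over all measured genes. Ube2c had the highest ratio, 698 over 543 CPM or 1.29 (1.26 to 1.32), and Anln, a scaffold of the cytokinetic ring, the lowest of the G2/M genes, at 0.93. Weighted to the same mix of finer classes, the ratios were 0.994 for G2/M and 0.959 for S, on the other side of 1. In Dup 1468 of 4253 mesenchyme cells were autopod mesenchyme, against 326 of 2025 in C57BL/6, and how the tissue was sampled cannot be told apart from genotype.

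A far lower G2/M level in Dup was found in autopod chondrocyte progenitors, at 4203 CPM in 90 C57BL/6 cells and 2020.1 CPM in 272 Dup cells, a ratio of 0.48 (0.46 to 0.50). Of the 22 G2/M genes 21 were lower by 1.5 times or more, beside 9.01% of 8058 measured genes, and their median log2 ratio was -1.14 beside -0.05 over all. Plk1 was at 86.5 and 27.7 CPM, a ratio of 0.32 (0.22 to 0.46). Top2a was at 424 and 193 CPM, Ccnb1, cyclin B1, at 158 and 78.5 CPM, and Mki67 at 94.4 and 47.4 CPM. Birc5, which encodes survivin, had the highest ratio, 0.67 (0.57 to 0.79) at 279 and 187 CPM. The whole list thus had ratios below 1.

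The S genes of autopod chondrocyte progenitors differed less, with a sum ratio of 0.87 (0.82 to 0.91). Rrm2 (0.44, 0.37 to 0.53), Cdc6 (0.52) and Fen1 (0.62) were lower by 1.5 times or more, and Mcm6 had a ratio of 1.29 (0.99 to 1.69). The G2/M sum was 1.78 times the S sum in C57BL/6 and 0.988 times in Dup. G2/M-high cells were 67.8% (56.9 to 77.4%) and 26.9% (21.7 to 32.6%), S-high cells 26.4 and 51.3%, and low cells 5.7 and 21.8%. The phases deposited by the authors put 28.9% and 8.82% of these cells in G2M and 48.9% and 76.5% in G1. Of the further G2/M genes, a list of 24 with no member in common, 18 of 22 measured were lower, with a sum ratio of 0.55 (0.52 to 0.58), and Cdkn1c was at 1119 CPM in C57BL/6 and 1853 CPM in Dup.

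Several measurements moved with this difference. The median cell had 9831.5 UMIs in C57BL/6 and 5727 in Dup. Among cells with over 3000 detected genes (51 and 37 cells) the G2/M sums were 4956 and 5511 CPM, a ratio of 1.11, on the other side of 1. The 10 chondrocyte markers summed to 849.6 CPM in C57BL/6 and 1199 CPM in Dup, below those of the stylopod class, and 8 of 10 were detected. In mesenchyme as a whole they summed to 519 to 1098 CPM over 6 libraries, with 9 to 10 detected. The C57BL/6 value lay within that range, so these markers set the autopod class little apart. In all mesenchyme cells chosen by chondrocyte markers, 827 in C57BL/6 and 1075 in Dup, the G2/M ratio was 1.06, and among cells of the class that passed the same marker gate it was 0.406. The part of depth and of the class boundary in the result was not tested.

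The stylopod progenitors did not repeat this pattern. Their G2/M ratio was 0.95 (0.88 to 1.02) and their S ratio 1.11 (1.04 to 1.19). Only Aurkb and Ccnb1 (0.62, 0.40 to 0.95) were lower by 1.5 times among the G2/M genes, beside 6.55% of 8286 measured genes, and Ung was higher (1.74, 1.06 to 2.84), beside 8.45% of measured genes. G2/M-high cells were 19.8 and 18.9%. Whether the autopod and stylopod differences differ from each other was not tested.

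In AER cells of Dup the G2/M ratio was 0.80 (0.71 to 0.90) and the S ratio 0.81 (0.68 to 0.95). By 1.5 times or more, 2 G2/M genes were higher and 4 lower, and 1 S gene was higher and 6 lower, beside 24.5% of 7918 measured genes higher and 21.6% lower. Ung was at 66.1 and 12.8 CPM in C57BL/6 and Dup, a ratio of 0.19 (0.02 to 0.85), and Pcna, the sliding clamp, at 61.0 and 115.1 CPM, a ratio of 1.89 (0.86 to 4.29). Without the 5 cells that carried mesenchyme markers the sum ratios were 0.965 for G2/M and 0.992 for S. The difference between wild-type libraries was larger: the G4 over the C57BL/6 hindlimb gave 0.55 for G2/M and 0.51 for S, and 15 of 20 S genes and 14 of 22 G2/M genes were lower by 1.5 times, beside 28.7% of 7725 measured genes. These C57BL/6 values include the cells with mesenchyme markers. Without them the G2/M sums were 3150 CPM in C57BL/6 and 1980 CPM in G4, and the S sums 1546 and 944 CPM.

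In dorso-ventral ectoderm of Dup the lists went apart, with a G2/M ratio of 1.05 (0.96 to 1.14) and an S ratio of 0.74 (0.66 to 0.83). Of the S genes 10 of 20 were lower by 1.5 times, beside 26.2% of 7780 measured genes, and their median log2 ratio was -0.51 beside -0.18 over all. Rrm2 was at 281 CPM in C57BL/6 and 133 CPM in Dup, a ratio of 0.47 (0.33 to 0.69). The C57BL/6 value rests on 11 cells, and the G4 over the C57BL/6 hindlimb gave an S ratio of 0.72 (0.64 to 0.80) in this class.

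Muscle of Dup was near the C57BL/6 hindlimb in both lists, with ratios of 1.03 (1.00 to 1.07) for G2/M and 1.00 (0.96 to 1.04) for S. No member changed by 1.5 times, beside 3.17% of 7317 measured genes that were higher and 5.49% that were lower. The highest member was Cdk1, at 160 and 224 CPM, a ratio of 1.40 (1.21 to 1.61), and the lowest Anln, at 20.9 and 15 CPM.

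Inv1 was compared with G4 wild type in each limb, to ask the same of the inversion. No test over both limbs was run, since each limb had 1 library per genotype. In mesenchyme of the hindlimb all 22 G2/M genes had ratios above 1, with sums of 3802 and 4415 CPM in G4 and Inv1, a ratio of 1.16 (1.15 to 1.17). The share of all measured genes above 1 is not given, but their median log2 ratio was also above 0, at 0.04. Over the 22 G2/M genes the median was 0.23. None of the 22 passed 1.5 times, beside 0.503% of 7947 genes that were higher and 0.327% that were lower by that fold. Mki67 was the highest, at 106 and 141 CPM, a ratio of 1.33 (1.28 to 1.38), and Birc5 the lowest, at 1.04. The S ratio was 1.04 (1.03 to 1.05). G2/M-high cells differed by 2.97 percentage points (1.16 to 4.77).

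In mesenchyme of the forelimb the G2/M sums were 4192 CPM in G4 and 4106 CPM in Inv1, a ratio of 0.98 (0.97 to 0.99), and the S ratio was 0.90 (0.89 to 0.91). Rrm1, at 183 and 121 CPM, was the only member past 1.5 times (ratio 0.66, 0.64 to 0.69), beside 9.23% of 8628 measured genes lower and 0.417% higher. Mki67 had the lowest G2/M ratio, 0.71 (0.68 to 0.73) at 215 and 152 CPM, and Ube2c the highest, 1.26 (1.24 to 1.29) at 493.5 and 624 CPM. The sum was 1.09 under median-of-ratios scaling, 1.02 without the member with most UMIs, and 1.11 over members with transcripts under 4 kb, each on the other side of 1.

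The G4 forelimb library was also set beside the G4 hindlimb, a comparison that shares it with the one above. Over the G4 hindlimb, 5 G2/M and 3 S genes were higher by 1.5 times in G4 forelimb mesenchyme, beside 31.3% of 8439 measured genes, and Mki67 (2.03), Anln (2.17), Kif11 (1.71), Cenpe (1.61) and Top2a (1.58) were the G2/M genes. Birc5 (0.73) and Ube2c (0.79) were the lowest. These ratios followed the length of the transcript: over the 22 G2/M genes Spearman's rho with the length of the longest annotated transcript was 0.82 for the G4 forelimb over the G4 hindlimb and -0.72 for the Inv1 over the G4 forelimb, and over all measured genes 0.72 (8307 genes) and -0.67 (8486 genes). The 8 G2/M genes with transcripts of 4 kb or longer had median log2 ratios of 0.67 and -0.37 in these pairs, and the 14 shorter ones 0.01 and 0.09. The 2 comparisons share the G4 forelimb library, and all genes share its depth, so these are descriptions. What part length has in the differences was not tested.

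**Figure D5:**
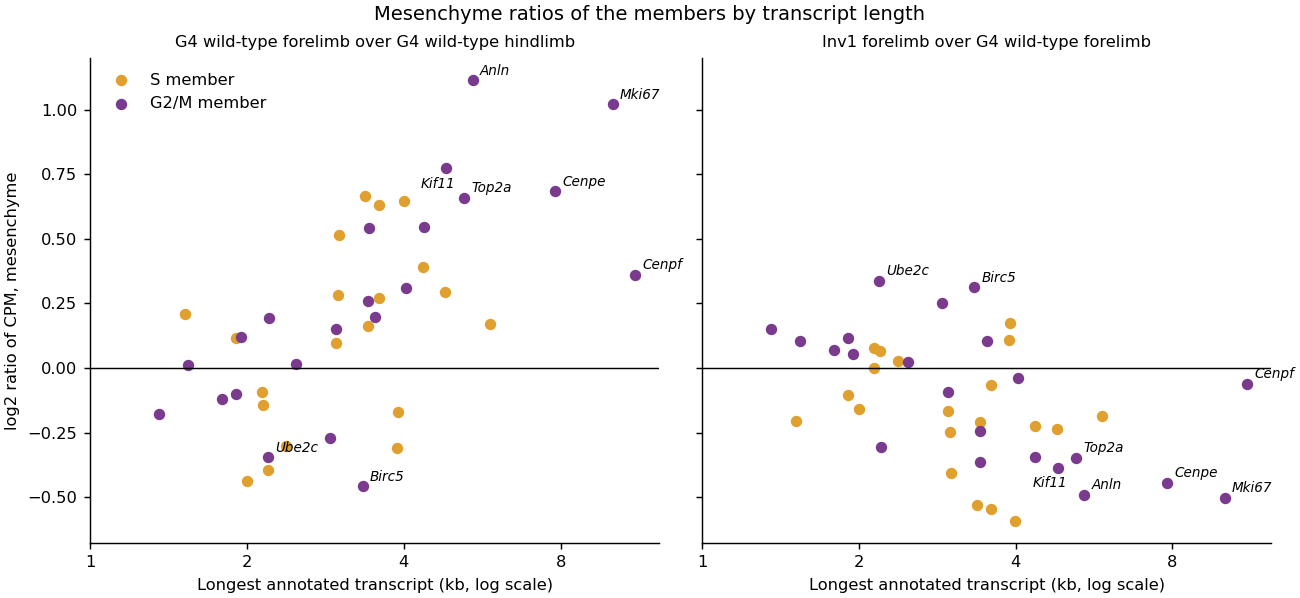
Log2 ratio of each member in mesenchyme against the length of its longest annotated transcript in kb (log axis), for the G4 forelimb over the G4 hindlimb and the Inv1 forelimb over the G4 forelimb. The 8 G2/M genes of 4 kb or longer have medians of 0.67 in the first panel and -0.37 in the second.

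In AER cells of the Inv1 hindlimb the G2/M sum was 1373 CPM (82 cells) against 1980.2 CPM in G4 (33 cells), a ratio of 0.69 (0.62 to 0.77), and the S ratio was 0.87 (0.74 to 1.01). Of 21 measured G2/M genes 11 were lower by 1.5 times and 1 was higher, beside 16.4% of 7806 measured genes lower and 16.4% higher, with a median log2 ratio of -0.65 beside -0.04 over all. Ube2c was at 327 and 182 CPM (ratio 0.56, 0.42 to 0.74), Ccnb1 at 96.6 and 48.2 CPM (0.50, 0.29 to 0.87), and Cdc20 at 112 and 55.7 CPM (0.50, 0.30 to 0.84). Top2a differed little, at 197 and 185 CPM (0.94, 0.68 to 1.32), and Plk1 was the gene that was higher, at 11.1 and 21.1 CPM. The share of G2/M-high cells differed by -2.88 percentage points (-21.6 to 13.1), so at this number of cells no difference in it was detectable. With a gate on AER markers the ratio was 0.799.

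In AER cells of the forelimb the direction was the opposite, with 909 CPM in 10 G4 cells and 1787 CPM in 39 Inv1 cells, a G2/M ratio of 1.97 (1.53 to 2.57). Of 21 measured G2/M genes 10 were higher by 1.5 times and 2 lower, beside 13.7% of 8131 measured genes higher and 40.5% lower, with 0.5 counts added for the members at 0 UMIs in G4. Birc5 was at 27.5 and 157.5 CPM (ratio 5.72, 1.52 to 48.3) and Ube2c at 68.8 and 307 CPM (4.46, 1.86 to 14.0), while Mki67 was at 82.6 and 56.8 CPM (0.69, 0.27 to 2.07). The G4 values rest on few UMIs, since the whole G2/M sum there was 66 UMIs and its top cell gave 34.8% of them. With the gate on AER markers, which held 20 and 59 cells, the sums were 2291 and 1601 CPM and the ratio 0.699, on the other side of 1. The S ratio was 0.96 (0.73 to 1.30).

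In dorso-ventral ectoderm Inv1 had a G2/M ratio of 1.12 (1.07 to 1.18) in the hindlimb and 0.70 (0.64 to 0.76) in the forelimb. In the forelimb 12 of 22 G2/M genes were lower by 1.5 times, beside 29.7% of 8033 measured genes, with a median log2 ratio of -0.79 beside -0.25. Mki67 was at 237 CPM in G4 and 84.3 CPM in Inv1 (ratio 0.36, 0.24 to 0.53), and Ube2c at 398.5 and 439 CPM. The S ratios were 1.06 (0.98 to 1.13) and 1.02 (0.91 to 1.14).

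In muscle too the Inv1 ratio lay above 1 in the hindlimb and below 1 in the forelimb. In the hindlimb the G2/M ratio was 1.19 (1.16 to 1.22). Of the G2/M genes 21 of 22 were above 1, and the share of all measured genes above 1 is not given. Mki67 (57.6 and 90.4 CPM, ratio 1.57, 1.33 to 1.86), Nusap1 (1.51) and Cenpf (1.51) were higher by 1.5 times, beside 3.85% of 7325 measured genes. The S ratio was 0.99 (0.96 to 1.02), so the difference lay in the G2/M sum. The share of G2/M-high cells was not higher, at 67.4% in G4 and 66.8% in Inv1. Cells with 15 or more G2/M UMIs were 25.3% and 31.7%. In cells with Myog UMIs the G2/M ratio was 1.35 (1.29 to 1.42) and the S ratio 0.84 (0.79 to 0.89), and Cenpf was at 104 and 232 CPM.

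In forelimb muscle the G2/M ratio was 0.73 (0.71 to 0.76) and the S ratio 0.80 (0.77 to 0.83). By 1.5 times, 10 of 22 G2/M genes and 3 of 20 S genes were lower, beside 20.4% of 7982 measured genes. Anln was at 47.1 and 21.0 CPM (ratio 0.45, 0.32 to 0.62) and Mki67 at 147 and 70.3 CPM (0.48, 0.40 to 0.57), while Ccnb2 (1.04) and Cdk1 (1.02) had ratios near 1. The median was -0.51 beside -0.21 over all measured genes. Among G2/M genes with transcripts of 4 kb or longer it was -0.86, and among shorter ones -0.26.

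The other cell cycle lists mostly followed the members. In mesenchyme the 24 further G2/M genes had sum ratios of 1.11, 1.09 and 0.95 in Dup, the Inv1 hindlimb and the Inv1 forelimb, and in the AER 0.79, 0.80 and 1.63. The 20 further S genes had ratios of 1.07, 1.04 and 0.955 in mesenchyme, where 0, 0 and 1 were lower by 1.5 times, and 1.03, 0.97 and 0.88 in muscle. The 18 genes of G1/S control had ratios of 1.00, 1.06 and 0.863 in mesenchyme and 1.01, 1.04 and 0.838 in muscle. The inhibitors had ratios of 0.87, 0.90 and 0.97 in mesenchyme, where Cdkn1c was lower in each mutant than in its wild type (1207 and 990.2 CPM in C57BL/6 and Dup, 994 and 822 CPM in G4 and Inv1 hindlimbs, 892 and 831 CPM in forelimbs). Btrc, which lies in the duplicated region, encodes β-TrCP, the part of an SCF ubiquitin ligase that recognises cell cycle proteins such as Emi1 (Fbxo5), Wee1, Cdc25a and claspin (Clspn). Transcripts of these 4 genes had sum ratios of 1.12, 1.09 and 0.89 in mesenchyme and 0.95 (0.56 to 1.60), 0.99 (0.64 to 1.56) and 0.55 (0.28 to 1.16) in the AER, so in AER cells no difference was detectable at this depth. Protein levels, on which the ligase acts, were not measured.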

How the data were processed

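Limb buds at embryonic day 11.5 were dissociated and their single cells profiled in droplets, with transcripts counted at the 3′ end, in 6 libraries. The authors deposited UMI counts per gene and cell, from Cell Ranger 3 and a customised mm9 genome (the submitters' processing notes also name mm10), for cells left by their limits on genes, mitochondrial content and Scrublet score, together with cell classes from Louvain clusters, phase calls and a per-cell phase score. The deposited phase calls were used as an alternative and are also given for chondrocyte progenitors. The score per cell used as a further alternative was not the deposited one. It was computed here from the members, less the mean of genes of like expression (24 bins). No further doublet step was run. Groups were taken from the titles of the samples, and 14 columns of per-cell values were not used.

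The members, gene lists and alternatives were chosen with earlier results of these data known. Cells with 2000 or fewer detected genes were left out. UMIs were summed per class and library and scaled to CPM over the 15668 genes in both matrices, with Poisson, Clopper-Pearson and conditional binomial intervals at 95% (Newcombe intervals for differences of shares). A member was measured at a mean of 10 CPM or more over a pair and counted as higher or lower at 1.5 times, after 0.5 counts were added. For phase calls each cell was thinned to 4000 UMIs (seed 20231). Any member could be named, led in each class and pair by those with the 3 highest and 3 lowest ratios, and genes of the other lists with a mean of 10 CPM or more. No test between groups was run. Python 3.11.15, numpy 2.4.6, scipy 1.17.1, pandas 2.3.3 and matplotlib 3.10.9 were used, and scripts were tested on simulated data.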

Additional observations from a re-analysis of the deposited data

Results flagged for a closer look

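In Inv1 over G4 wild type, 5 sums lay on opposite sides of 1 in the 2 limbs, each limb with 1 library per genotype, and the difference between limbs was not tested. In AER cells the G2/M ratio was 0.693 in the hindlimb and 1.97 in the forelimb, the first being 0.352 times the second. In dorso-ventral ectoderm the G2/M ratios were 1.12 and 0.696, 1.61 times apart. In mesenchyme the S ratios were 1.04 and 0.896, 1.16 times apart, and the G2/M ratios 1.16 and 0.979, 1.19 times apart. In muscle the G2/M ratios were 1.19 and 0.73, 1.63 times apart. All 5 forelimb values rest on the G4 forelimb library, whose all-gene shift is given above.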

How the results depend on the processing

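Every group held 1 library, and leaving out a replicate gave no value. No paired analysis was possible because each group had 1 library and every label the same number. Ratios are mutant over wild type, with the value of the report in brackets, and the cause of each shift was not tested.

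With a gate on AER markers the AER G2/M ratio of the Inv1 forelimb was 0.699 (1.97), reversed, and of the Inv1 hindlimb 0.799 (0.693). Without AER cells that carry mesenchyme markers the Dup AER ratios were 0.965 for G2/M (0.802) and 0.992 for S (0.807). In place of autopod progenitors, all mesenchyme cells that passed a chondrocyte marker gate, a different and larger set of cells, gave 1.06 for G2/M (0.481) and 1.01 for S (0.867), both on the other side of 1, while autopod progenitors that passed the gate gave 0.406 for G2/M. Weighted to the same mix of finer classes, Dup mesenchyme gave 0.994 for G2/M (1.09) and 0.959 for S (1.03), both reversed.

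With a limit of 3000 detected genes, which left 2 to 19 AER cells per library, the G2/M ratios were 1.70 in Dup AER (0.802, reversed), 1.11 in autopod progenitors (0.481, reversed), 1.15 in Dup and 1.23 in Inv1 hindlimb dorso-ventral ectoderm, 1.31, 1.14 and 0.956 in mesenchyme of Dup, the Inv1 hindlimb and the Inv1 forelimb, and 1.16 and 0.757 in muscle of Dup and the Inv1 forelimb. The S ratios were 0.356 in Dup AER, 0.960 in Dup mesenchyme (1.03, reversed) and 1.01 in Inv1 hindlimb mesenchyme, and the G2/M-high share differed by -22.1 percentage points in Inv1 hindlimb AER and 10.4 in Dup mesenchyme.

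Under median-of-ratios scaling the G2/M ratios were 1.09 in Inv1 forelimb mesenchyme (0.979, reversed), 1.14 and 1.13 in mesenchyme of Dup and the Inv1 hindlimb, 0.789 in Inv1 forelimb dorso-ventral ectoderm, and 0.832 and 1.16 in muscle of the Inv1 forelimb and hindlimb, and the S ratios 1.07, 1.01 and 0.999 in mesenchyme of Dup, the Inv1 hindlimb and forelimb, 1.15 in forelimb dorso-ventral ectoderm and 0.907 in forelimb muscle. With transcripts under 4 kb the G2/M ratios were 1.11 in Inv1 forelimb mesenchyme (reversed), 1.14 and 1.11 in mesenchyme of Dup and the Inv1 hindlimb, 2.82 in forelimb AER, 0.763 in forelimb dorso-ventral ectoderm, and 0.863 and 1.16 in muscle of the Inv1 forelimb and hindlimb, and the S ratios 1.05 and 1.03 in mesenchyme of Dup and the Inv1 hindlimb.

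As the median of the members, G2/M ratios were 1.06, 1.17 and 0.966 in mesenchyme (Dup, Inv1 hindlimb, Inv1 forelimb), and 1.40, 0.579 and 0.701 in forelimb AER, dorso-ventral ectoderm and muscle, with S ratios of 1.01 and 0.885 in mesenchyme of Dup and the Inv1 forelimb. As the mean of each cell's CPM they were 1.25 and 1.04 in dorso-ventral ectoderm of Dup and the Inv1 hindlimb and 1.16 and 0.971 in mesenchyme of Dup and the Inv1 forelimb, with an S ratio of 0.876 in the latter. Without the member with most UMIs they were 1.06 and 1.02 (reversed) in mesenchyme of Dup and the Inv1 forelimb and 0.763 in forelimb muscle, with an S ratio of 0.881 in forelimb mesenchyme. Without the top cell Dup dorso-ventral ectoderm gave 1.23.

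The difference of G2/M-high shares, in percentage points, was 4.58 in Dup mesenchyme (1.96) and 3.59 in Dup muscle (-7.06, of opposite sign) at 15 or more UMIs, -7.81 in Inv1 forelimb mesenchyme at 3 or more (-4.40), -1.99 in Dup mesenchyme without thinning (of opposite sign), 5.76 there with the authors' calls, and with a score per cell 13.6 in Dup dorso-ventral ectoderm (-18.3, of opposite sign), 5.14 and 3.51 in Dup mesenchyme and muscle, -0.732 in Inv1 forelimb mesenchyme and 8.32 in Inv1 hindlimb muscle (-0.630, of opposite sign). A limit of 1000 genes (38 values), the annotation made on hindlimbs alone (8), a limit of 8 UMIs (12) and thinning to 2500 UMIs (12) moved no value past its interval, and leaving out the top cell kept 25 of 26. The deposited cells had at least 1989 (C57BL/6 and Dup) or 1492 (G4 and Inv1) detected genes. The limit of 1000 genes therefore left out no cell and only returned 4 to 508 cells per library, so it could move these values little. AER and dorso-ventral values rest on few cells.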

Other observations

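Transcript length also ran with the ratios of the G2/M genes in the hindlimb pairs. In mesenchyme Spearman's rho over the 22 G2/M genes was 0.78 for Inv1 over G4 (0.39 over 7831 measured genes), -0.49 for Dup over C57BL/6 (-0.41 over 7862 genes) and -0.43 for G4 over C57BL/6 (-0.17 over 7879 genes). The 8 G2/M genes of 4 kb or longer had a median log2 ratio of 0.38 in the Inv1 hindlimb and the 14 shorter ones 0.19, both above 0. In muscle rho was -0.84 for the Inv1 over the G4 forelimb. Genes of a library share its depth and preparation, and these values are descriptions.

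The phases deposited by the authors were set beside the calls made here in the C57BL/6 and Dup hindlimbs. All 1934 cells of their G2M phase were G2/M-high here, and the 519 cells called low here were all in their G1 phase. Of the cells called G2/M-high here, 30.7% were in their G1 phase and 27.3% in their S phase, so the limit of 5 UMIs takes in more cells. By their calls 18.8% and 20.0% of AER cells and 25.1% and 30.9% of mesenchyme cells were in G2M in C57BL/6 and Dup.

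In Dup over C57BL/6, muscle connective tissue differed little in the members, with sums of 4087 and 4040.1 CPM for G2/M and 2597 and 2369 CPM for S.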
